A study of Mus musculus with 12 samples.

Results

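The BMP and TGF-beta pathway genes are described here in urogenital sinus epithelium, which lines the part of the embryo that forms the bladder neck, the urethra and the prostate. They were chosen by symbol: the numbered Bmp, Tgfb, Tgfbr and Smad genes, all Acvr genes, Id1 to Id4, Bmpr1a, Bmpr1b, Bmpr2, Inhba, Inhbb, Nog, Grem1, Chrd, Fst and Sostdc1. The choice found 47 of the 20308 gene symbols in the count table. The tested libraries were 8 of epithelium in which a Cre recombinase driven by Shh had deleted Dnmt1 (Dnmt1cKO), and they were set against 4 of wildtype epithelium (Control). All embryos were C57BL/6J mice at embryonic day 15.5, the epithelium was freed from the stroma with trypsin, and each lysate pooled the tissue of several embryos. Shh is known from this epithelium and not from its stroma, and whether the Control embryos carried Cre or floxed alleles is not given in the sources used here. The comparison asks how the transcripts of these genes differ once the enzyme that copies DNA methylation to the new strand is deleted.

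Ligands of this family bind pairs of type I and type II receptor kinases. BMP receptors phosphorylate Smad1, Smad5 and Smad9, TGF-beta and activin receptors phosphorylate Smad2 and Smad3, and both kinds of Smad enter the nucleus with Smad4. Secreted antagonists hold ligands away from receptors, Smad6 and Smad7 damp the signal, and the Id genes are direct targets of BMP signalling in many cell types. In the urogenital sinus, Bmp4 and Bmp7 are known to restrain the budding of prostatic ducts, and Nog opposes them.

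The unit of level is CPM (counts per 1000000), the expected count of a gene scaled to a library total that TMM factors had adjusted. Library totals were 4007533 to 11970907 expected counts in Dnmt1cKO, against 7577706, 2915193 and 1613514 in Controls 1, 2 and 3 and 543591 in the library labelled Control 4. A floor of 3 counts corresponds to 0.219 to 0.853 CPM in Dnmt1cKO, against 0.368, 1.01, 2.25 and 8.52 CPM in the Controls in numerical order. The median level in Dnmt1cKO of 21 of the 47 genes lay under the floor of the library labelled Control 4, so a lower level of these genes was not detectable there. Dnmt1 itself had 22.8 to 96.8 CPM in Dnmt1cKO, against 164, 114 and 235 CPM in Controls 1, 2 and 3 and 2.84 CPM, a single count, in the library labelled Control 4. That library therefore goes against its label for the deleted gene. Of the 12761 genes that passed a filter on low counts, 49.2% lay below every Dnmt1cKO library there, so such a low value is not particular to Dnmt1. In the edgeR test described below, on all 12 libraries, Dnmt1 had a log2 fold change of -1.29 ± 0.63 (SE; edgeR adjusted p = 0.284). The mean log2(CPM + 2) of Dnmt1 differed by -0.43 between Dnmt1cKO and Control (exact two-sided permutation test over libraries, p = 0.699). Without the library labelled Control 4 the difference was -1.705, given with no test because that library was left out for its own Dnmt1 value.

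Epithelial identity was checked with 12 markers, including Epcam, Cdh1 and Krt8, and all 12 were detected in every library. Their summed level was 4810 to 7880 CPM in Dnmt1cKO and 3770 to 25500 CPM in Control. Control 3 lay far below every Dnmt1cKO library in Trp63 at 2.25 CPM, Foxa1 at 2.25 CPM, Shh at 3.75 CPM and Krt19 at 11.2 CPM. Cldn4 was at 36.7 CPM there, against 233 to 380 CPM in Dnmt1cKO, and Esrp1 at 17.2 CPM, against 33.6 to 151 CPM. Cdh1, Krt5 and Cldn7 in Control 3 were also below every Dnmt1cKO library, Krt5 and Cldn7 narrowly. Epcam at 778 CPM and Krt8 at 851 CPM lay inside the Dnmt1cKO range there, and Krt18 at 874 CPM lay above it. In Dnmt1cKO, Trp63, a basal cell factor, ran from 102 to 292 CPM and Shh from 76.3 to 235 CPM, and the other Controls held 229 to 250 CPM of Trp63 and 84.2 to 667 CPM of Shh. Stroma was not absent: 15 stromal markers, including Col1a1, Dcn and Pdgfra, summed to 304 to 6510 CPM in Dnmt1cKO (median 1760) and 1330 to 10400 CPM in Control (median 5115). Twist2, 1 of those markers, was at 0 in Dnmt1cKO 2, 7 and 8 and in the library labelled Control 4, and Twist1 was at 0 in Dnmt1cKO 7 and in the library labelled Control 4. None of the 15 passed the test, all 15 had a log2 fold change below 0, and their median was -1.675. Markers of endothelium summed to 9.78 to 90.5 CPM in Dnmt1cKO and 34.0 to 309 CPM in Control, and 0 of the 7 tested passed. Of its 9 markers, 6 were at 0 in the library Dnmt1cKO 2, and 7 were at 0 in the library labelled Control 4. Immune markers summed to 11 to 66.3 CPM in Dnmt1cKO and 2.84 to 99.7 CPM in Control. Erythroid markers summed to 10.4 to 1490 CPM in Dnmt1cKO and 429 to 5770 CPM in Control, and neural and glial markers to 14.0 to 600.0 CPM in Dnmt1cKO and 28.4 to 553 CPM in Control. Many pathway genes are also expressed in stroma and endothelium. With the log2 summed level of the stromal markers as a covariate, 0 of the 39 genes tested were called, where 327 of all 12761 genes were. Their median log2 fold change was 0.46, where that of all genes was 0.39. The part of the other cell types in the values below was not tested. In bulk tissue, fewer cells of a type and less RNA per cell cannot be told apart.

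None of the 39 pathway genes tested passed in either direction. The test was edgeR's quasi-likelihood F-test with Benjamini-Hochberg adjustment over the 12761 genes that passed a filter on low counts, and the other 8 of the 47 pathway genes did not pass that filter. Over all genes tested, 1.03% were higher and 1.55% were lower in Dnmt1cKO at an adjusted p under 0.05. At an unadjusted p under 0.05, Acvr2a and Tgfbr1 were higher, where 8.19% of all genes were, and Grem1 was lower, where 9.54% of all genes were. DESeq2 called 0 of the 39 genes higher, against 3.82% of all genes, and it called Bmp2k and Smad3 lower, against 8.07% of all genes. With limma-voom and quality weights, 0 were called higher and 0 lower, against 0.0549% and 0.196% of all genes. No gene of the 39 had every Dnmt1cKO library above every Control library, where 2.59% of all genes did, and none had every Dnmt1cKO library below, where 0.478% did. The median log2 fold change of the 39 genes, Dnmt1cKO over Control, was 0.22, the same to this precision as the 0.22 of all genes tested. Fold changes were above 0 in 24 genes and below 0 in 15, with standard errors (SE) of 0.453 to 1.715. Over all 12761 genes tested, 7315 were above 0 and 5446 below.

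**Figure D1:**
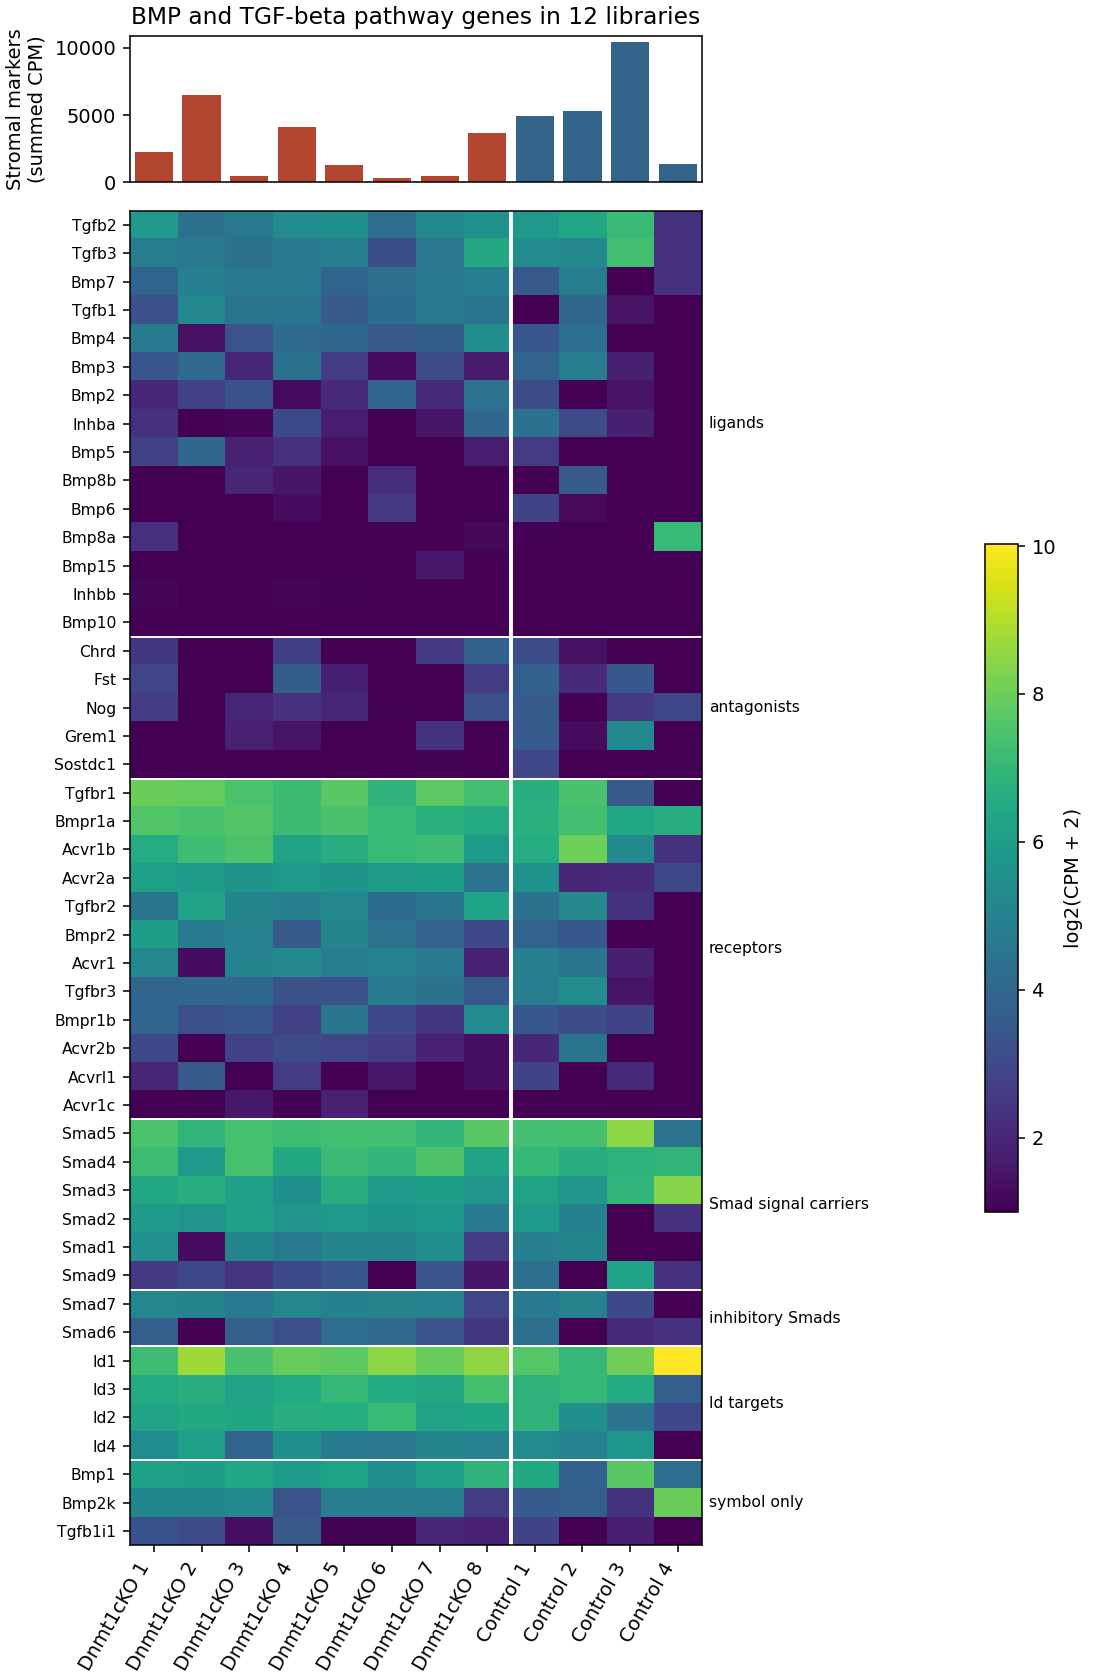
Level of the 47 BMP and TGF-beta pathway genes in every library, as log2(CPM + 2) on the colour scale, ordered by role down the page, with 8 Dnmt1cKO libraries (red bars) left of 4 Control libraries (blue bars). The bars above give the summed CPM of 15 stromal markers, which is highest in Control 3 at 10400 CPM. Receptors, Smads and Id genes fill most libraries, most antagonists are dark in many libraries, and the library labelled Control 4 is dark for 28 of the 47 genes that had no count there.

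DNA around the start of 4 of these genes is shown because CG dinucleotides are the sites at which Dnmt1 copies methylation. Acvr2a, Tgfbr1 and Grem1 had the smallest unadjusted p, and Tgfb1 had the largest positive fold change of the 39 genes. Each sequence is the 250 bases before the RefSeq start on GRCm38.p6, read 5' to 3' on the gene's strand, with every CG in capitals.
Acvr2a promoter, chr2:48813859-48814108, plus strand: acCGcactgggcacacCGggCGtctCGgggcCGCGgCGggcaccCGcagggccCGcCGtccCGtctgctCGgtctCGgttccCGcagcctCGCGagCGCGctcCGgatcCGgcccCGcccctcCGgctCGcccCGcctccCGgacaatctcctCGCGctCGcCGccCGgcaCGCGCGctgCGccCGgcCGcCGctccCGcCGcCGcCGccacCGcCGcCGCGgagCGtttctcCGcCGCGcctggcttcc
Tgfbr1 promoter, chr4:47352972-47353221, plus strand: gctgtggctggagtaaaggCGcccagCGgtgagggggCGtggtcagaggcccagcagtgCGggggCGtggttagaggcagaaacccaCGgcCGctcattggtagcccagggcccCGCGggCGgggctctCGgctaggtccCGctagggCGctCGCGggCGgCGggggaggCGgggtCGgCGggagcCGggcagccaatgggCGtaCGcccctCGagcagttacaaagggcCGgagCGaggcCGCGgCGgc
Tgfb1 promoter, chr7:25686752-25687001, plus strand: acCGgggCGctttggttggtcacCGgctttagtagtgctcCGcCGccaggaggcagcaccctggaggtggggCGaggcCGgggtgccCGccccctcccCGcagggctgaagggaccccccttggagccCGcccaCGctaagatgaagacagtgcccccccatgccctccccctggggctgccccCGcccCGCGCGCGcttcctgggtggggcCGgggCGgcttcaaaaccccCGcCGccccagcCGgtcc
Grem1 promoter, chr2:113758649-113758898, minus strand: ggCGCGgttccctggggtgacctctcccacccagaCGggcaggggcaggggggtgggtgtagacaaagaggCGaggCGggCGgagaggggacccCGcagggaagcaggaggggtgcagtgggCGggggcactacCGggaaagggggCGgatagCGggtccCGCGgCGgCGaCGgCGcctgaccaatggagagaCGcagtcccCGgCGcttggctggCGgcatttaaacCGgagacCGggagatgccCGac
They hold 49 CG dinucleotides for Acvr2a, 29 for Tgfbr1, 21 for Tgfb1 and 24 for Grem1. The median was 24 in the 25 such windows of pathway genes tested and 16 in the 9627 of all genes tested. The palindrome GGCGCC, known from BMP response elements, lies in the windows of Tgfbr1 and Grem1. It lies in 36.0% of the 25 windows and in 17.2% of the 9627. A match is a description and not a site. RefSeq windows were at hand for 32 of the 47 genes. They are too few to set CG content or the share with GGCGCC against other genes, so both comparisons are void. The 4 windows shown were picked by p or fold change, so they are not set against other genes either. Methylation itself was not analysed here.

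The 15 ligand genes comprise Bmp2 to Bmp8b, Bmp10 and Bmp15, Tgfb1 to Tgfb3, and Inhba and Inhbb, the last a pair of activin subunits. Per kilobase of merged exons, the leading ligands in Dnmt1cKO were Tgfb1 with a mean of 8.79 CPM per kb, Tgfb3 with 8.64, Bmp4 with 7.55, Tgfb2 with 6.75 and Bmp7 with 5.85. In Control the same means were 1.75 for Tgfb1, 17.1 for Tgfb3, 3.19 for Bmp4, 13.3 for Tgfb2 and 2.63 for Bmp7. Neighbours in the Dnmt1cKO order lay within the spread between libraries. None of the 9 ligands tested passed, with 5 fold changes above 0 and 4 below.

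Tgfb1, a broad growth inhibitor of epithelium, lies at chr7:25687002-25705077 on the plus strand. It had 7.43 to 34.7 CPM in Dnmt1cKO (median 20.1), against 0, 14.5, 0.750 and 0 CPM in Controls 1, 2 and 3 and the library labelled Control 4. All 8 Dnmt1cKO libraries exceeded 3 of the Controls, and Control 2 lay inside their range. The fitted log2 fold change was 2.20 ± 1.21 (SE; edgeR adjusted p = 0.356). Without Control 2 it was 6.61, with an adjusted p of 0.0303 in edgeR, in a fit where 0.908% of all genes were called higher. That value rests on a single count among the 3 Controls left.

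Tgfb2 and Tgfb3 are TGF-beta ligands of many embryonic tissues, and both had fold changes below 0. Tgfb2 had 17.2 to 57.5 CPM in Dnmt1cKO (median 37.3), against 57.3, 82.1, 134 and 2.84 CPM in the Controls in numerical order (log2 fold change -0.99 ± 0.70, edgeR adjusted p = 0.497). Tgfb3 had 7.08 to 84.5 CPM in Dnmt1cKO (median 24.1), against 38.9, 36.0, 153 and 2.84 CPM in the Controls in the same order (-1.0 ± 0.78, edgeR adjusted p = 0.542). For both genes the highest Control was Control 3, where stromal markers were also highest, and the library labelled Control 4 was lowest. In Dnmt1cKO, stromal markers were highest in library 2 at 6510 CPM, which held 18.8 CPM of Tgfb2 and 23.1 CPM of Tgfb3. They were lowest in library 6 at 304 CPM, which held 17.2 CPM of Tgfb2 and 7.08 CPM of Tgfb3. The part of stroma was not tested.

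Bmp4 and Bmp7, whose roles in prostatic budding were given above, both had fold changes above 0. Bmp4 had 0.672 to 41.5 CPM in Dnmt1cKO (median 12.5), against 8.85, 17.5, 0 and 0 CPM in the Controls in numerical order (log2 fold change 1.145 ± 1.16, edgeR adjusted p = 0.654). Bmp7 had 13.1 to 27.8 CPM in Dnmt1cKO (median 23.6), against 9.57, 26.3, 0 and 2.84 CPM in the Controls in the same order (1.09 ± 1.0, edgeR adjusted p = 0.615). In both, Control 2 lay inside the Dnmt1cKO range and the groups overlapped. Bmp4 shares exon sequence with the protein-coding gene Gm15217 on the opposite strand, so its counts are uncertain.

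The other ligands were low. Bmp2, a BMP of bone and many epithelia, had 0.412 to 19.6 CPM in Dnmt1cKO (median 3.65) and 0 to 6.75 CPM in Control. Bmp3, a ligand that counters osteogenic BMPs, had 0.399 to 19.0 CPM in Dnmt1cKO (median 5.24) and 0 to 26.6 CPM in Control. Bmp5 had 0 to 14.0 CPM in Dnmt1cKO and 0 to 3.91 CPM in Control, and Inhba 0 to 13.7 CPM in Dnmt1cKO and 0 to 18.4 CPM in Control. The 4 adjusted p-values of Bmp2, Bmp3, Bmp5 and Inhba in edgeR were 0.608, 0.846, 0.730 and 0.724. A further 6 ligands did not pass the filter: Bmp6, Bmp8a, Bmp8b, Bmp10, Bmp15 and Inhbb. Bmp10, a cardiac ligand, had no count in any library. Bmp8a had 47 counts in the library labelled Control 4, which made 133 CPM there, and 0 to 2.62 CPM in Dnmt1cKO. Bmp8a and Bmp8b are near-identical copies whose reads could be divided between them, so the values of both are uncertain.

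The 5 antagonists Nog, Chrd, Fst, Grem1 and Sostdc1 bind BMPs or activins outside the cell, and all were low, with summed levels of 0 to 23.0 CPM in Dnmt1cKO and 44.4, 3.43, 47.9 and 5.68 CPM in the Controls in numerical order. None of the 4 tested passed; 1 fold change was above 0 and 3 were below. Grem1 (gremlin, chr2:113746164-113758646, minus strand) had the smallest p among all 39 genes. It had 0, 0, 1.52, 0.823, 0, 0, 3.06 and 0 CPM in Dnmt1cKO 1 to 8, against 10.1, 0.401, 35.2 and 0 CPM in Controls 1, 2 and 3 and the library labelled Control 4. Controls 1 and 3 lay above every Dnmt1cKO library, while Control 2 and the library labelled Control 4 lay among them. The log2 fold change was -4.05 ± 1.54 (edgeR adjusted p = 0.152), and without Control 3 it was -2.42 with an adjusted p of 0.552. Stromal markers summed to 10400 CPM in Control 3, the highest, and to 4930 CPM in Control 1. They summed to 5300 CPM in Control 2, which held 0.401 CPM of Grem1, and to 6510 CPM in Dnmt1cKO 2, which held 0. Grem1 is known as a stromal product in several organs, and the part of stroma was not tested. With the stromal covariate the log2 fold change of Grem1 was -5.35 ± 2.89 (edgeR adjusted p = 0.420).

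Nog (noggin) had 0 to 7.11 CPM in Dnmt1cKO (median 1.89), against 10.2, 0, 3.75 and 5.68 CPM in the Controls in numerical order. Fst (follistatin, an activin antagonist) had 0 to 10.6 CPM in Dnmt1cKO and 0 to 11.9 CPM in Control, and Chrd (chordin) had 0 to 11.9 CPM in Dnmt1cKO and 0 to 6.75 CPM in Control. Adjusted p-values in edgeR were 0.745 for Nog, 0.739 for Fst and 0.918 for Chrd. Sostdc1 (ectodin, also a Wnt antagonist) had 45 counts in Control 1, or 5.52 CPM, 0.104 CPM in Dnmt1cKO 7 and 0 elsewhere, and did not pass the filter. Chrd also shares exon sequence with the protein-coding gene Thpo, and strand use in the counting is not given, so its counts are uncertain.

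None of the 11 receptors tested passed, of 12 in all, and 9 of the 11 had a fold change above 0 and 2 below, with a median of 0.80. Of all 12761 genes tested, 7315 had a fold change above 0. Their summed level was 452 to 761 CPM in Dnmt1cKO, against 450.0, 722, 145 and 105 CPM in the Controls in numerical order. The sums of Controls 1 and 2 lay near or inside the Dnmt1cKO range, and those of Control 3 and of the library labelled Control 4 lay below all of it. The order per kilobase in Dnmt1cKO ran Tgfbr1 (29.3 CPM per kb), Acvr1b (26.3), Bmpr1a (24.9), Acvr2a (9.38), Acvr1 (6.36), Tgfbr2 (4.55), Tgfbr3 (2.24), Bmpr1b (2.21), Bmpr2 (1.93), Acvr2b (1.02), Acvrl1 (0.574) and Acvr1c (0.0361). In Control, Acvr1b led with 22.3 CPM per kb, then Bmpr1a with 18.4 and Tgfbr1 with 10.8. The leading 3 receptors in Dnmt1cKO lay within the spread between libraries.

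Acvr2a, a type II receptor for activins and BMPs, lies at chr2:48814109-48903269 on the plus strand. It had 68.1, 59.4, 48.9, 58.8, 49.0, 59.1, 63.7 and 19.6 CPM in Dnmt1cKO 1 to 8, against 46.0, 2.02, 2.25 and 5.68 CPM in Controls 1, 2 and 3 and the library labelled Control 4. Dnmt1cKO 8 was lower than the other 7, Control 1 was higher than the other Controls, and the groups overlapped through these 2 libraries alone. The log2 fold change was 1.86 ± 0.86 (edgeR adjusted p = 0.246). Without Control 1 it was 4.21 with an adjusted p of 0.0130, in a fit where 4.99% of all genes were called higher. Without Control 3 and the library labelled Control 4 together it was 1.18 with an adjusted p of 0.604, and in that fit 0 pathway genes were called in either direction, against 0.322% of all genes higher and 0.0143% lower. Acvr2a shares exon sequence with Orc4 on the opposite strand.

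Tgfbr1, the type I receptor of TGF-beta, lies at chr4:47353222-47414931 on the plus strand. It had 116 to 255 CPM in Dnmt1cKO (median 193), against 98.0, 169, 9.75 and 0 CPM in the Controls in numerical order. Control 2 lay inside the Dnmt1cKO range and the other 3 lay below it. The log2 fold change was 1.41 ± 0.67 (edgeR adjusted p = 0.265), and without Control 3 and the library labelled Control 4 it was 0.57 with an adjusted p of 0.597. Without Control 2 it was 2.30 with an edgeR adjusted p of 0.0788. Tgfbr2, its type II partner, had 16.3 to 73.4 CPM in Dnmt1cKO (median 30.3), against 18.4, 35.7, 3 and 0 CPM in the Controls in the same order (1.31 ± 0.90, edgeR adjusted p = 0.483). Without Control 2 the value of Tgfbr2 was 2.205. Without Control 3 and the library labelled Control 4 it was 0.525 with an edgeR adjusted p of 0.815.

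Bmpr2, the type II receptor of BMPs, had 5.97 to 64.5 CPM in Dnmt1cKO (median 21.8), against 12.6, 9.09, 0 and 0 CPM in the Controls in numerical order (log2 fold change 2.06 ± 1.09, edgeR adjusted p = 0.328). Dnmt1cKO 1 was the highest library, and 2 Controls lay inside the Dnmt1cKO range. Without Control 1 the value was 2.78 with an edgeR adjusted p of 0.151. Without Control 3 and the library labelled Control 4 it was 1.27 with an edgeR adjusted p of 0.63. Bmpr1a, a type I BMP receptor, was steadier, with 88.5 to 193 CPM in Dnmt1cKO (median 157), against 107, 158, 84.0 and 96.5 CPM in the Controls in numerical order. Its fold change had an interval of 2 SE that ran from -0.51 to 1.38 (0.43 ± 0.47, edgeR adjusted p = 0.681). Acvr1b, the activin type I receptor, had 58.6 to 179 CPM in Dnmt1cKO (median 116), against 94.9, 260.0, 36.7 and 2.84 CPM in the Controls in the same order (0.22 ± 0.63, edgeR adjusted p = 0.895). The library labelled Control 4 had a count of 1 for Acvr1b and Control 2 was above all Dnmt1cKO libraries. Without Control 2 the value for Acvr1b was 1.32 with an edgeR adjusted p of 0.306.

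The remaining receptors had SE of 0.99 to 1.67. Acvr1 (ALK2, a BMP receptor) had 0.448 to 36.1 CPM in Dnmt1cKO and 0 to 28.8 CPM in Control, and Bmpr1b had 3.43 to 38.7 CPM in Dnmt1cKO and 0 to 9.20 CPM in Control. Tgfbr3, the co-receptor betaglycan, had 7.36 to 24.6 CPM in Dnmt1cKO and 0 to 40.7 CPM in Control, and Acvr2b, an activin type II receptor, had 0 to 6.59 CPM in Dnmt1cKO and 0 to 20.9 CPM in Control. Acvrl1 (ALK1, known from endothelium) had 0 to 9.86 CPM in Dnmt1cKO and 0 to 5.15 CPM in Control. Their edgeR adjusted p-values were 0.745 for Acvr1, 0.628 for Bmpr1b, 0.882 for Tgfbr3, 0.833 for Acvr2b and 0.988 for Acvrl1. Acvr1c (ALK7) was counted in 2 Dnmt1cKO libraries and in no Control, and did not pass the filter.

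The 6 signal-carrying Smads summed to 329 to 515 CPM in Dnmt1cKO, against 465, 372, 666 and 474 CPM in the Controls in numerical order, so they overlapped except for Control 3. None of the 6 passed, 3 having fold changes above 0 and 3 below. Smad4, the shared partner, was the most even of them in Control, though not in Dnmt1cKO. It had 57.1 to 186 CPM in Dnmt1cKO (median 132), against 131, 96.6, 113 and 119 CPM in the Controls in the same order. Its log2 fold change was 0.09 ± 0.50 with an interval of 2 SE from -0.90 to 1.08 (edgeR adjusted p = 0.949), and it was -0.35 with RLE scaling factors.

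Smad5, a BMP Smad, had 117 to 209 CPM in Dnmt1cKO (median 158), against 159, 163, 358 and 19.9 CPM in the Controls in numerical order (log2 fold change -0.17 ± 0.50, edgeR adjusted p = 0.895). The first 2 Controls lay in the middle of the Dnmt1cKO range, Control 3 lay above it and the library labelled Control 4 below. Smad9, the BMP Smad with the lowest mean per kilobase in Dnmt1cKO but not in Control, had 0 to 8.79 CPM in Dnmt1cKO (median 4.84), against 17.9, 0, 73.4 and 2.84 CPM in the Controls in the same order. Its fold change was -2.37 ± 1.18 (edgeR adjusted p = 0.286), and without Control 3 it was -0.65 with an adjusted p of 0.884. With the stromal covariate it was -1.31. Smad1 had 0.448 to 44.8 CPM in Dnmt1cKO (median 32.6), against 28.7, 33.3, 0 and 0 CPM in the Controls in the same order (edgeR adjusted p = 0.775).

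Of the TGF-beta Smads, Smad3 was the gene that DESeq2 called lower. It had 44.0 to 99.0 CPM in Dnmt1cKO (median 67.0), against 71.5, 50.2, 121 and 329 CPM in Controls 1, 2 and 3 and the library labelled Control 4. Control 3 and the library labelled Control 4 lay above every Dnmt1cKO library, and Controls 1 and 2 lay among them. The edgeR log2 fold change was -1.0 ± 0.55 (adjusted p = 0.353), DESeq2 gave -1.84 (adjusted p = 0.0377), and the edgeR value without the library labelled Control 4 was -0.11. Smad2 had 23.6 to 67.6 CPM in Dnmt1cKO (median 52.4), against 56.4, 28.9, 0 and 2.84 CPM in the Controls in numerical order (1.17 ± 0.85, edgeR adjusted p = 0.514). Among inhibitory Smads, Smad7 had 5.40 to 34.5 CPM in Dnmt1cKO (median 30.6) and 0 to 30.6 CPM in Control (0.79 ± 0.90), and Smad6 had 0 to 16.8 CPM in Dnmt1cKO and 0 to 18 CPM in Control (0.61 ± 1.27). Their edgeR adjusted p-values were 0.698 for Smad7 and 0.847 for Smad6.

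**Figure D2:**
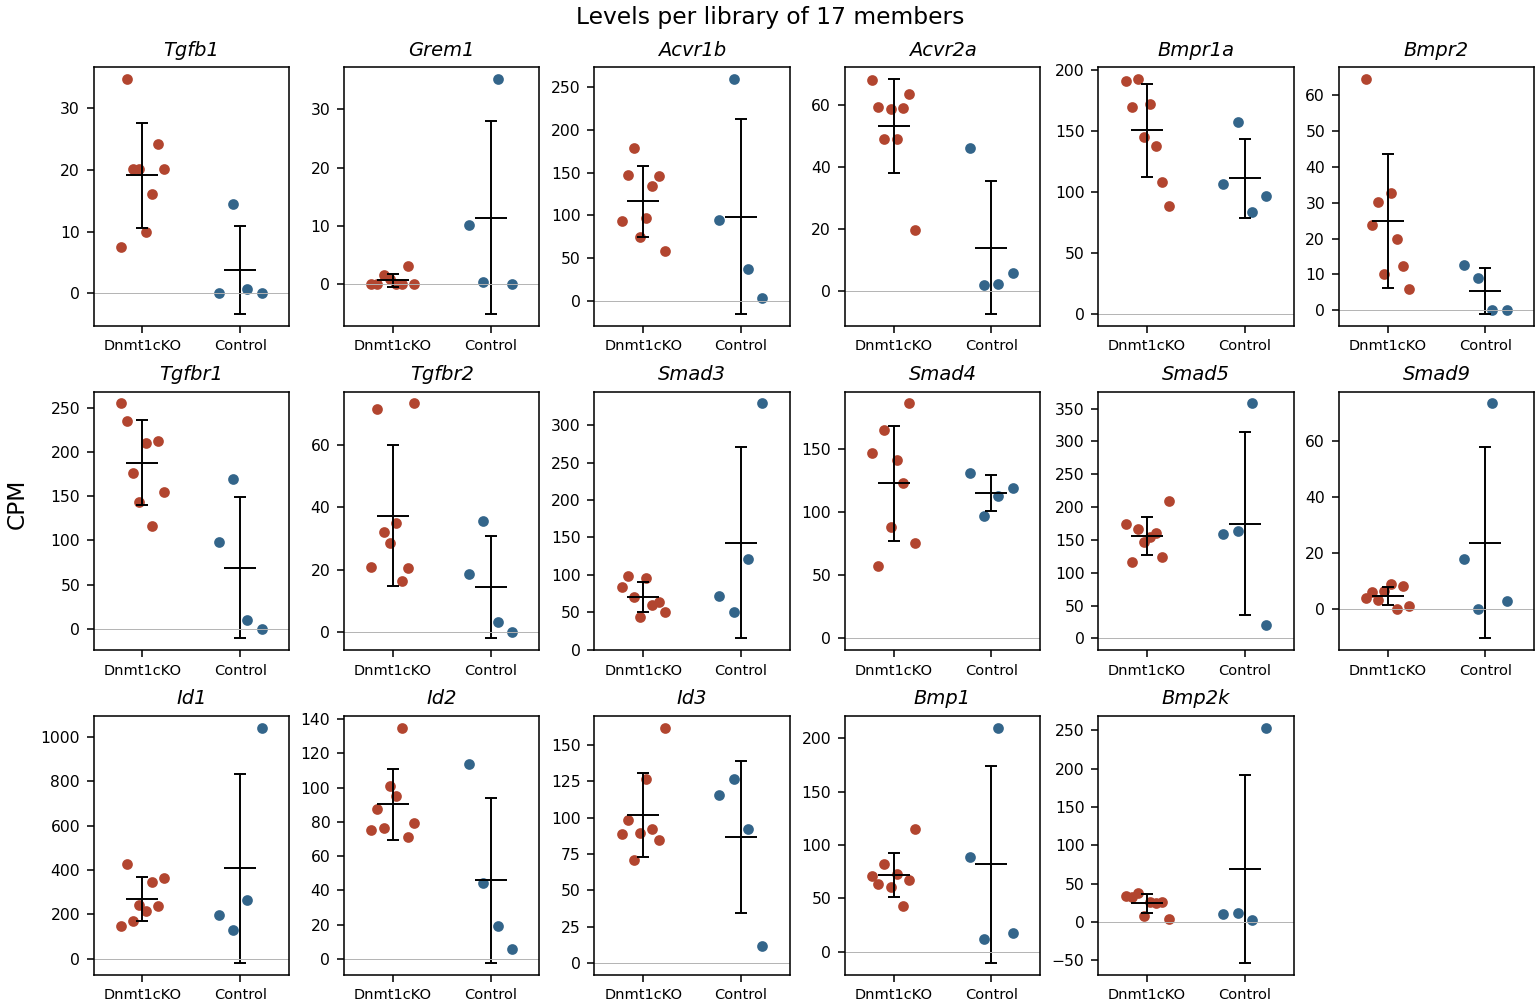
CPM of 17 pathway genes in each library, 1 panel a gene, with Dnmt1cKO (red, n = 8) left of Control (blue, n = 4). Points run by replicate number from left to right, the long bar is the mean and the whiskers are 1 SD, and in no panel do the groups separate.

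The 4 Id genes encode inhibitors of helix-loop-helix factors and are read as a display of BMP signalling in many cells. None passed the test, with fold changes of 0.16 to 0.93 for Id2, Id3 and Id4 and -0.59 for Id1. Id1 was the most abundant of all the pathway genes per kilobase, with means of 232 CPM per kb in Dnmt1cKO and 351 in Control. It had 149 to 425 CPM in Dnmt1cKO (median 240.0), against 197, 128, 266 and 1040 CPM in Controls 1, 2 and 3 and the library labelled Control 4 (edgeR adjusted p = 0.538). Only the last library lay above the Dnmt1cKO range, and without it the log2 fold change was 0.52 in place of -0.59.

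Id3 had 71.0 to 162 CPM in Dnmt1cKO (median 90.8), against 116, 127, 92.2 and 11.4 CPM in the Controls in numerical order (log2 fold change 0.21 ± 0.56, edgeR adjusted p = 0.887). Id2 had 71.4 to 135 CPM in Dnmt1cKO (median 83.7), against 114, 44.4, 19.5 and 5.68 CPM in the Controls in the same order (0.93 ± 0.64, edgeR adjusted p = 0.487). Without Control 1 the value of Id2 was 1.90 with an edgeR adjusted p of 0.0820. Without Control 3 and the library labelled Control 4 it was 0.24 with an edgeR adjusted p of 0.867. Id4 had 13.2 to 66.1 CPM in Dnmt1cKO (median 31.8), against 38.8, 30.3, 51.0 and 0 CPM in the Controls in the same order. Controls 1, 2 and 3 lay inside the Dnmt1cKO range for Id3 and Id4, while for Id2 only Control 1 did. The library labelled Control 4 was highest of the Controls for Id1 and lowest for the other 3 Id genes.

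Among 3 genes matched by symbol only, Bmp1 encodes a protease that cleaves procollagen and chordin, Bmp2k a kinase, and Tgfb1i1 the adaptor Hic-5, and none of them is a ligand. Bmp1 had 42.7 to 115 CPM in Dnmt1cKO (median 68.7), against 88.3, 11.8, 210.0 and 17 CPM in the Controls in numerical order (log2 fold change -0.20 ± 0.64, edgeR adjusted p = 0.904). Bmp2k had 4.27 to 37.8 CPM in Dnmt1cKO (median 25.9), against 10.2, 11.4, 3 and 253 CPM in Controls 1, 2 and 3 and the library labelled Control 4. DESeq2 called Bmp2k lower (log2 fold change -2.66, adjusted p = 0.0404), and edgeR gave -1.47 ± 0.86 (adjusted p = 0.389). Without the library labelled Control 4 the edgeR value was 1.615, and that library held 89 counts of the gene. Bmp2k shares exon sequence with the protein-coding gene Paqr3 on the opposite strand, so its counts are uncertain. Tgfb1i1 had 0.0876 to 9.47 CPM in Dnmt1cKO and 0 to 5.15 CPM in Control.

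**Figure D3:**
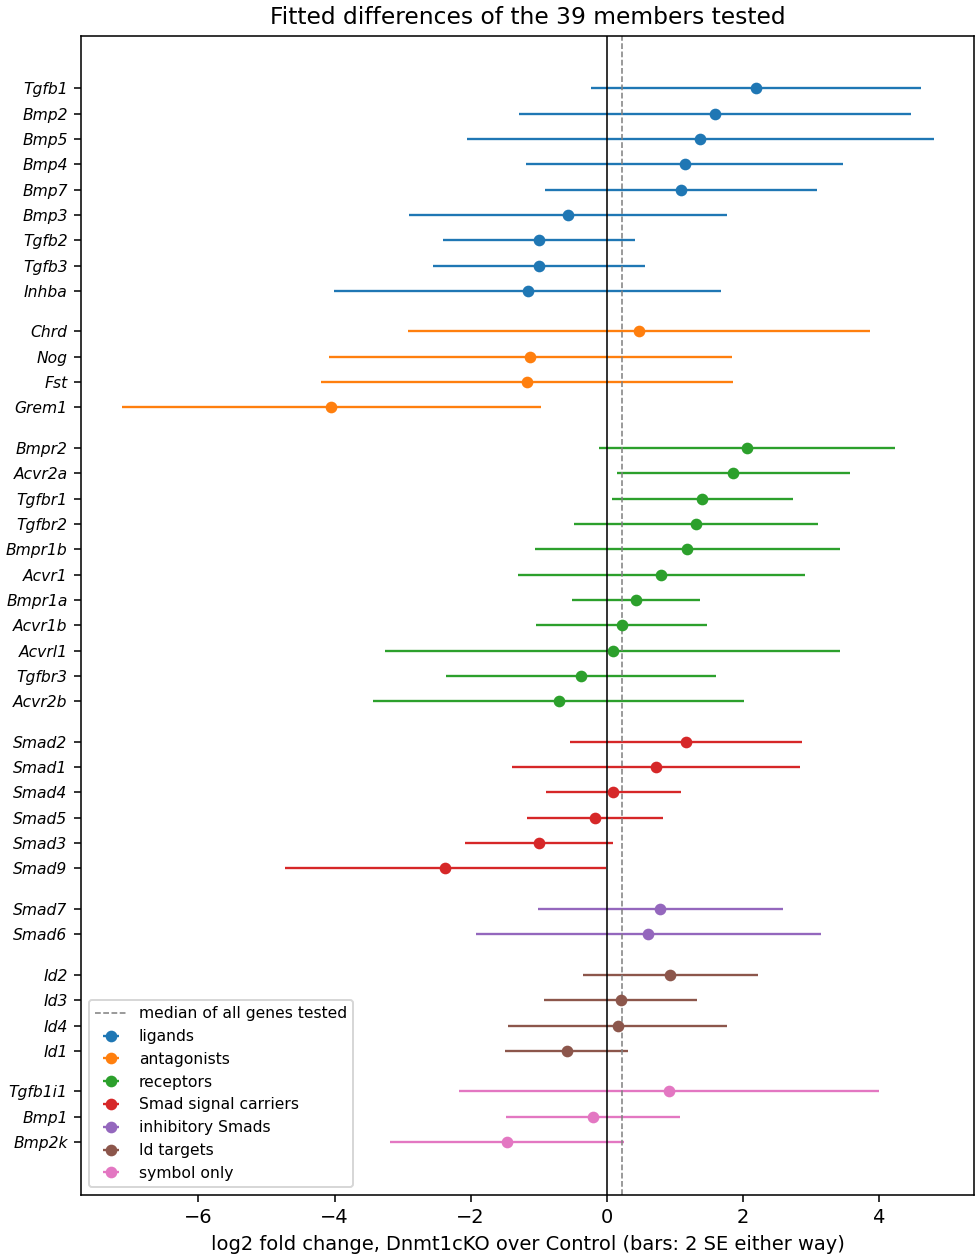
Fitted log2 fold change, Dnmt1cKO over Control, of the 39 pathway genes tested (points) with 2 SE either way (lines), coloured by role. The dashed line marks the median of all genes tested at 0.22, the values run from -4.05 for Grem1 to 2.20 for Tgfb1, and none passes the adjusted threshold.

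Precision differed between the genes. For 8 of the 39 the interval of 2 SE lay within a log2 fold change of 2 in either direction: Acvr1b, Bmp1, Bmpr1a, Id1, Id3, Id4, Smad4 and Smad5. For the other 31 tested genes a larger difference in at least one direction is inside the interval. Of the 39 genes, 16 had 1 sign in all 23 fits, the test itself and its 22 alternatives. Among these 13 were above 0, and 3 were below 0, namely Nog, Smad9 and Tgfb2. The fits share most of their libraries, so 1 sign throughout is partly built in, and its share over all genes was not computed. Grem1 passed the filter in 19 of the 23 fits and was below 0 in those. Sample descriptions also carry a code b, whose meaning the labels do not state, and the codes 4 to 7 are held by both groups. Within every 1 of these 4 codes, 7 of the 39 genes were higher in Dnmt1cKO (Acvr1, Acvr2a, Bmp2, Bmpr2, Smad2, Smad7 and Tgfb1), where 18.3% of all genes were. Smad3 alone was lower in all 4, where 4.07% of all genes were. Each of the 4 codes has a single Control, and the Control of code 7 is the library labelled Control 4.

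**Figure D4:**
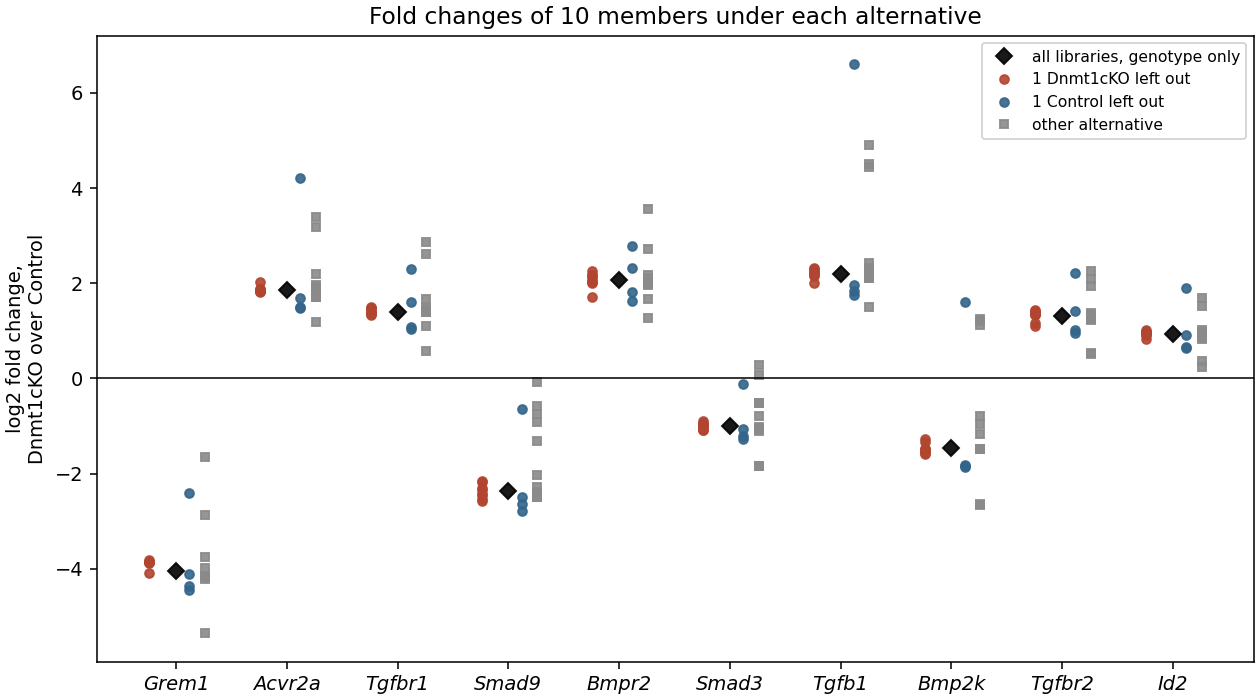
Log2 fold change, Dnmt1cKO over Control, of 10 pathway genes with the smallest unadjusted p under each alternative: all libraries (black), 1 Dnmt1cKO library left out (red), 1 Control library left out (blue) and the other settings (grey). Leaving out a Control moves Acvr2a to as much as 4.21 and Tgfb1 to as much as 6.61, and Smad3 and Bmp2k cross 0 under some settings.

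A list of 82 more genes of these pathways, such as latent TGF-beta binding proteins, integrins that release TGF-beta, further antagonists and cofactors of Smads, held 54 tested genes. Of these, 0 were called higher, where 1.03% of all genes were, and 1, Chrdl1, was called lower, where 1.55% were. Their median log2 fold change was 0.14. Chrdl1 (chordin-like 1, a BMP antagonist) had 0 to 2.89 CPM in Dnmt1cKO, against 4.54, 0, 0.750 and 148 CPM in Controls 1, 2 and 3 and the library labelled Control 4. Its log2 fold change was -4.92 ± 1.31 (edgeR adjusted p = 0.0349), and without the library labelled Control 4 it was -0.54 with an adjusted p of 0.922.

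The next genes by p did not pass in the edgeR test on all 12 libraries. Tgfbi, a matrix protein induced by TGF-beta, had 7.70 to 43.0 CPM in Dnmt1cKO (median 20.1), against 33.7, 9.43, 480.0 and 2.84 CPM in the Controls in numerical order. Its value was -2.56 ± 0.79 (edgeR adjusted p = 0.0728), but 0.47 without Control 3 and -0.76 with the stromal covariate. Inha, the inhibin alpha subunit, had 0 to 18.8 CPM in Dnmt1cKO (median 1.58), against 5.03, 0, 0 and 341 CPM in the Controls in the same order. Its value was -4.58 ± 1.504 (edgeR adjusted p = 0.121), and 1.05 without the library labelled Control 4. Inha passed in edgeR without Control 1 (adjusted p = 0.0327), without Control 2 (0.0332) and without Dnmt1cKO 8 (0.0301). The last of these fits called 411 of all genes.

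Ltbp3, a latent TGF-beta binding protein, had 0.672 to 72.5 CPM in Dnmt1cKO (median 50.2), against 116, 80.5, 411 and 2.84 CPM in the Controls in numerical order. Its value was -1.77 ± 0.75 (edgeR adjusted p = 0.205), and -0.595 without Control 3 (adjusted p = 0.779). Fstl1, a follistatin-like glycoprotein, had 294 to 690.0 CPM in Dnmt1cKO (median 401), against 556, 784, 1370 and 454 CPM in the Controls in the same order. Its value was -0.89 ± 0.36 in edgeR (adjusted p = 0.177), and DESeq2 called it lower (-1.18, adjusted p = 0.0395). DESeq2 called 3 of the 54 lower in all, Fstl1, Ctdsp1 and Pmepa1, where 8.07% of all genes were, and 0 higher.

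Ctdsp1, a phosphatase known to act on Smads and chosen after its values were seen, was the 1 gene of the 54 whose groups did not overlap, where 0.478% of all genes lay wholly below. It had 38.5 to 81.3 CPM in Dnmt1cKO (median 67.8), against 97.8, 157, 156 and 159 CPM in the Controls in numerical order (-1.19 ± 0.51, edgeR adjusted p = 0.205).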

How the data were processed

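Polyadenylated RNA was sequenced from 12 libraries, 8 Dnmt1cKO and 4 Control, grouped by the genotype labels. The deposited values are RSEM expected counts, which are estimated counts in which reads that fit several transcripts were divided by the authors' software. The submitters' processing notes name RSEM 1.2.3, Bowtie 0.12.9, bcl2fastq 2.17.1.14 and mm10. Trimming, annotation and strand settings are not given, so counts of genes that overlap others are uncertain, which 16 of the 47 do. No molecular identifiers are mentioned, so floors cover counting error only. The labels do not say which libraries of a group came from separate pools, so p-values reflect only how far these libraries spread, which may be technical.

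Fractional values occurred for 38.5% of the 20308 symbols, and 4471 symbols were without a count. Counts were rounded and tested with edgeR 4.0.16 in R 4.3.3, by the quasi-likelihood F-test with TMM factors, robust dispersions and filterByExpr (minimum count 10, minimum total 15). P-values were adjusted over 12761 genes by the Benjamini-Hochberg method. SE was computed from the fold change and its F statistic and is approximate. The coefficient of variation between libraries was 0.984, and no 2 libraries of a group agreed within counting noise (lowest chi-square per degree of freedom 28.1). Alternatives were RLE factors, library totals, no filter, a minimum count of 30, DESeq2 1.42.0, limma-voom (limma 3.58.1), replicate blocks, a stromal covariate and libraries left out. Exact permutation tests used scipy 1.17.1. Exon lengths and gene positions are from GENCODE M21 on GRCm38, and promoter windows from RefSeq. Scripts were tested on simulated data.

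Values are given in full for genes called, for genes whose groups did not overlap, for the 10 with the smallest unadjusted p and for the 10 with the highest mean CPM, and of the other pathway genes for those called and the 5 with the smallest p. Members and lists were chosen with earlier results of these data known.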

Additional observations from a re-analysis of the deposited data

Results flagged for a closer look

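In 46 groups of libraries for 23 genes, 11 libraries stood apart from the rest of their group by more than Dixon's criterion allows. Chance alone flags about 1 group in 20 where values follow a normal distribution. Several of these groups hold zeros and the genes were picked partly by p, so the 11 cannot be set against that rate. Among pathway genes in Dnmt1cKO, Acvr2a was at 19.6 CPM in Dnmt1cKO 8, where the other 7 held 48.9 to 68.1 CPM. Bmpr2 was at 64.5 CPM in Dnmt1cKO 1, where the others held 5.97 to 32.6 CPM. Id2 was at 135 CPM in Dnmt1cKO 6, where the others held 71.4 to 101 CPM.

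In Control, Acvr2a was at 46.0 CPM in Control 1, where the others held 2.02 to 5.68 CPM, and Tgfb1 was at 14.5 CPM in Control 2, where the others held 0 to 0.750 CPM. In the library labelled Control 4, Bmp2k was at 253 CPM, against 3 to 11.4 CPM in the other Controls, and Id1 was at 1040 CPM, against 128 to 266 CPM.

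Of the other pathway genes, Inha was at 18.8 CPM in Dnmt1cKO 8, where the others held 0 to 3.06 CPM. In the library labelled Control 4, Inha was at 341 CPM, against 0 to 5.03 CPM in the other Controls, and Chrdl1 was at 148 CPM, against 0 to 4.54 CPM. Tgfbi was at 480.0 CPM in Control 3, against 2.84 to 33.7 CPM in the others.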

How the results depend on the processing

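Of 473 fold changes of 22 genes under the alternatives, 414 kept their direction and their side of the threshold, 11 passed it newly, 9 lost it and 39 turned. Depth limits the low genes, since in Control 3 a gene needs 2.25 CPM to reach 3 counts, and in the library labelled Control 4 it needs 8.52. DESeq2 gave Chrdl1, Inha and Tgfbi no adjusted p, and those values are not counted here.

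The number of pathway genes called higher stayed at 0 except when Control 1 or Control 2 was left out (range 0 to 1), and the number called lower was 2 with DESeq2 and 0 to 0 when single libraries were left out. Of the other pathway genes, 3 were called with RLE factors and 3 with DESeq2, where 896 and 1517 of all 12761 genes were. With library totals alone, a minimum count of 30 or limma-voom, 0 were called, where 160, 353 and 32 of all genes were. Either replicate block gave 0. The fit without Control 3 and the library labelled Control 4 also gave 0, where 47 of all genes were called. Leaving out single libraries gave 0 to 6, the 6 without Control 1, where 1151 of 13161 genes were called. The cause was not tested.

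The replicate block on title numbers used only Dnmt1cKO 1 to 4 beside the Controls. The median log2 fold change of the pathway genes was 1.05 there, where all genes had 0.86. In that fit 50 of 11459 genes were called, where the test on all 12 libraries called 330. It differs from the test in its libraries as well as its block. With the block on the code b the median of the pathway genes was 0.79, where all genes had 1.09 and 207 genes were called. Tgfbr1 was at 2.61 with that block. Without single libraries the median of the pathway genes was 0.22 to 0.45. Deviations of same-numbered libraries correlated at -0.0551 to 0.0613 for title numbers and -0.0461 to 0.0687 for the code b, and 0 of 4 and 1 of 4 Controls correlated best with their own number, so the numbers were not taken to pair libraries. Scaling shifted the median of all genes, 0.07 with RLE factors and 0.38 with library totals. The Dnmt1 difference without the library labelled Control 4 was -1.705 in place of -0.43.

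Values that turned were, with limma-voom, Acvr1b -0.025, Bmp1 0.651, Bmp2k 1.128, Id1 0.199, Id3 -0.201, Smad3 0.078 and Smad5 0.007. Without Control 3 and the library labelled Control 4 they were Acvr1b -0.532, Bmp1 0.561, Bmp2k 1.239, Id1 0.779, Id3 -0.197, Smad3 0.281, Smad5 0.028, Tgfbi 0.105 and Inha 0.525. With the title-number block they were Bmp1 0.625, Bmp2k 1.204, Smad4 -0.118 and Smad5 0.236, and with the code b block Bmp1 0.792 and Smad5 0.348. With library totals they were Bmp1 0.048 and Smad5 0.036, with the stromal covariate Bmp1 0.461, Smad4 -0.363 and Smad5 0.282, and Smad4 was -0.348 with RLE factors and -0.331 with DESeq2. Leaving out single libraries gave ranges of -0.096 to 1.322 for Acvr1b, -0.565 to 0.837 for Bmp1, -1.86 to 1.615 for Bmp2k, -0.886 to 0.515 for Id1, -0.072 to 0.445 for Id3, -0.016 to 0.226 for Smad4, -0.452 to 0.432 for Smad5, -2.947 to 0.473 for Tgfbi and -5.802 to 1.048 for Inha. The cause was not tested.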

Other observations

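Of the other pathway genes, 5 had an unadjusted p under 0.05 with a fold change above 0 and 8 had one with a fold change below 0, where 8.19% and 9.54% of all genes did. The 5 above 0 and the pair Pmepa1 and Tab1 were chosen after their values were seen. Thbs1, an activator of latent TGF-beta, had 23.0 to 188 CPM in Dnmt1cKO (median 76.3), against 22.4, 31.6, 45.0 and 0 CPM in Controls 1, 2 and 3 and the library labelled Control 4. Itgav, an integrin chain that takes part in that activation, had 51.2 to 384 CPM in Dnmt1cKO (median 143), against 75.3, 46.1, 106 and 2.84 CPM in the Controls in numerical order. Its partner chain Itgb6, known from epithelium, had 8.75 to 52.4 CPM in Dnmt1cKO (median 15.6), against 11.4, 0.764, 0 and 0 CPM in the Controls in the same order. Cdkn2b, a cell cycle inhibitor induced by TGF-beta, had 0.284 to 43.2 CPM in Dnmt1cKO (median 8.55) and 0 to 4.54 CPM in Control. Atoh8, a helix-loop-helix factor, had 0 to 27.0 CPM in Dnmt1cKO (median 3.79) and 0 to 2.84 CPM in Control. None of the 5 passed the adjusted threshold in edgeR, with adjusted p of 0.228 for Thbs1 and Itgav, 0.268 for Itgb6, 0.205 for Cdkn2b and 0.281 for Atoh8, and the groups overlapped in all 5. Among those below 0, Pmepa1, a TGF-beta target that damps the pathway, had 17.4 to 35.1 CPM in Dnmt1cKO (median 23.2), against 29.4, 30, 172 and 51.1 CPM in the Controls in numerical order (edgeR adjusted p = 0.219). Tab1, a partner of the kinase TAK1, had 19.4 to 43.2 CPM in Dnmt1cKO (median 29.7), against 68.7, 42.1, 234 and 0 CPM in the Controls in the same order (edgeR adjusted p = 0.278). The other 6 are Chrdl1, Ctdsp1, Fstl1, Inha, Ltbp3 and Tgfbi, described above.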
